A study of Zea mays with 24 samples.

Results

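The salt response of the maize (Zea mays) cultivar ST was compared between young shoots and roots. All 12 libraries that the labels give to cultivar ST were used, out of 24 in the series. They form 4 groups of 3 libraries: shoots under salinity, shoots under water, roots under salinity and roots under water. Seedlings were grown under normal conditions and received a 100 mM salinity solution or water at the 3-leaf stage. The labels name neither the salt nor the length of exposure. The other 12 libraries come from the cultivar SS, treated in the same way, and served for comparison. They also do not say what the letters ST and SS stand for or whether a library came from 1 plant or several. The quantity followed was the difference of responses, in which the log2 change under salinity in roots was subtracted from that in shoots. A positive difference means that salinity moved a feature further up, or less far down, in shoots than in roots.

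Roots meet a saline solution first. They take up sodium and chloride with water, and the shoot receives what the xylem carries upward, along with hormonal signals from the root. The shoot is the photosynthetic organ, in which stomatal closure, leaf growth and carbon metabolism are the processes best known to change under salt. The named genes in these data are miRNA genes, which encode short RNAs that cut or silence the transcripts of regulatory proteins. Members of the conserved families zma-MIR156, zma-MIR166, zma-MIR168, zma-MIR169 and zma-MIR171 control developmental phase, leaf polarity, the silencing machinery itself, drought-linked transcription factors and meristem maintenance in plants.

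Libraries of ST held 20639297 to 27131033 reads assigned to features, with 21914845 to 26611690 in shoots and 20639297 to 27131033 in roots. The 100 most abundant features took 27.5% to 28.1% of the reads in shoots and 11.2% to 12.1% in roots. Of the variance of log2(FPKM + 1) over these libraries, 92.9% lay between tissues, 3.18% between treatments, 2.28% in the interaction of tissue and treatment and 1.63% within groups. Pearson coefficients between replicates were 0.9909 to 0.9955, and no library stood apart from its group. The tissue labels could not be set against defining marker genes, because the names available cover miRNA genes only. In bulk tissue, fewer cells of a type and less RNA per cell cannot be told apart, which applies to each level given here.

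In ST, shoots and roots differed in their answer to salinity for a large share of the features, and part of these moved in opposite directions. Of 26651 features tested, 11280 (42.3%) had a called difference of responses, at a limma adjusted p under 0.05 on log2(FPKM + 1). The shoot response lay above the root response for 4562 of them (17.1% of the features tested) and below it for 6718 (25.2%). A difference of at least 1 on the log2 scale was called for 1906 features (7.15%), 778 positive (2.92%) and 1128 negative (4.23%). That count depends on how low values are treated, as a pseudocount of 0.1 gave 3099 and a filter asking for 1 FPKM in 3 libraries of each tissue gave 1189.

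Each tissue had its own salt response. In shoots 9698 features were called (36.4%), of which 4280 rose (16.1% of the features tested) and 5418 fell (20.3%), and by at least 1 on the log2 scale 347 rose (1.3%) and 543 fell (2.04%). In roots 12111 were called (45.4%), of which 6914 rose (25.9%) and 5197 fell (19.5%), and by at least 1 the counts were 612 (2.3%) and 632 (2.37%). The majority of falls in shoots was not kept with quantile normalization, in which 4814 rose and 4710 fell. It was kept when libraries were rescaled by the median of ratios, in which 4397 rose and 5910 fell. The majority of rises in roots was bound to the deposited scaling, with 57.1% of the calls upward, against 49.5% when libraries were rescaled by the median of ratios. Among the differences, 40.4% of the calls were positive with the deposited values, 44.9% with that rescaling and 49.8% with quantile normalization. The SD of the log2 response over all features was 0.4036 in shoots and 0.4742 in roots, and that of their difference was 0.5668. The responses of the tissues rest on separate libraries, and their Pearson coefficient across the 26651 features was 0.17, with a Spearman coefficient of 0.13. Features are not independent replicates, so these coefficients are descriptions.

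**Figure D1:**
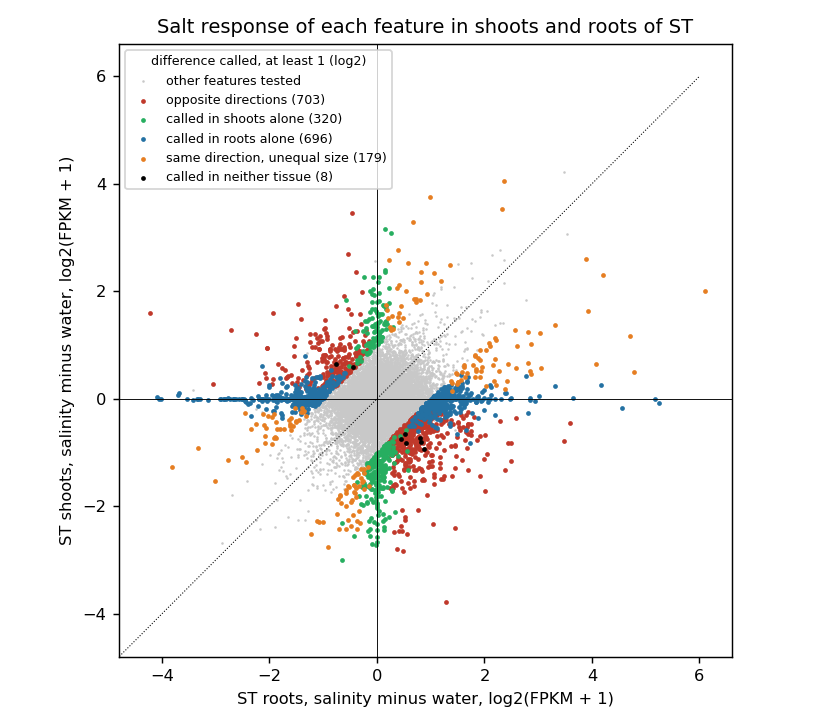
Each point is 1 of 26651 tested features, with its salt response in ST roots on the x axis and in ST shoots on the y axis, both as salinity minus water on log2(FPKM + 1). Coloured points are the 1906 features with a called difference of at least 1, and the dotted line marks equal responses. Features that moved in opposite directions (703) lie in the upper left and lower right of the plot, and features called in roots alone (696) lie along the horizontal axis.

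Among the 1906 large differences, opposite movement and movement in roots alone were the most frequent patterns. Opposite responses add up in the difference, so a cut on its size by itself favours opposite movement. Shoots and roots were called in opposite directions for 703 of them (36.9%), 237 that rose in shoots and fell in roots and 466 that fell in shoots and rose in roots. These were 268 and 422 when libraries were rescaled by the median of ratios and 294 and 376 with quantile normalization, so the size of the excess of the second kind depended on scaling. A further 696 (36.5%) were called in roots and not in shoots, and 320 (16.8%) in shoots and not in roots. Both tissues moved the same way by unequal amounts for 179 (9.39%), and for 8 neither response was called on its own. A call in 1 tissue alone does not show that the other tissue did not respond. Over all 11280 called differences, 2002 (17.7%) were opposite, 4602 (40.8%) were called in roots alone, 3009 (26.7%) in shoots alone, and 1194 (10.6%) moved the same way by unequal amounts.

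**Figure D2:**
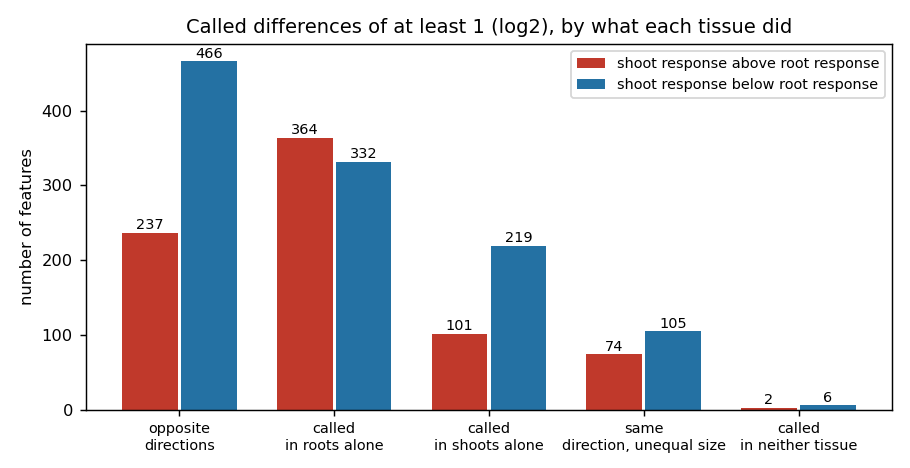
Bars count the features with a called difference of responses of at least 1 on the log2 scale, split by whether the shoot response lay above (red) or below (blue) the root response. The highest bar is the 466 features that fell in shoots and rose in roots, and the counterpart that rose in shoots and fell in roots holds 237.

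Some features were called in both tissues. These were 5196 of the 26651 tested, where 36.4% were called in shoots and 45.4% in roots. Of the 5196, 3194 (61.5%) moved in the same direction, 1713 upward and 1481 downward. The overlap that those call rates give by themselves was not worked out, and both tissues had a common estimate of spread. The counts therefore do not show a shared response. Of those 3194, 2000 had no called difference between the tissues. Neither response nor their difference was called for 9565 features.

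Features below 1 FPKM in all libraries of 1 tissue had called differences about as often as all features (42.3%). Differences of at least 1 on the log2 scale made up a larger share of them than of all features (7.15%). Such features passed the filter through the other tissue alone, so these shares depend on that selection. Of the 3780 tested features below 1 FPKM in all 6 shoot libraries, 1559 (41.2%) had a called difference, and 445 (11.8%) one of at least 1. Of the 1288 below 1 FPKM in all 6 root libraries, 584 (45.3%) had a called difference, and 144 (11.2%) one of at least 1. Both shares were higher for features with 0 reads in a tissue. Of 420 with 0 reads in all 6 shoot libraries, 218 (51.9%) were called, and 100 (23.8%) by at least 1. Of 76 with 0 reads in all 6 root libraries, 36 (47.4%) were called, and 13 (17.1%) by at least 1. With the filter that asks for 1 FPKM in 3 libraries of each tissue, chosen after seeing the data, opposite movement made up 608 of 1189 large differences (51.1%) and movement in roots alone 246 (20.7%). That filter takes out features with little signal in 1 tissue, for which a call in both tissues is hard to reach. These shares therefore follow in part from the filter.

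Called differences made up a larger share of the tissue-preferring features than of the rest, given here as a description without a test. Tissue preference was read from the average of log2(FPKM + 1) over both treatments, which does not enter the difference of responses. Features of low level cannot reach 4-fold on that scale and fall in between. Level and tissue preference are therefore mixed in this comparison, and the part of level was not tested. Among 1788 features at least 4-fold higher in shoots, 376 had a positive and 649 a negative difference, 57.3% in all. Among 3423 features at least 4-fold higher in roots, the counts were 772 and 1154, or 56.3%, against 38.8% of the 21440 features in between. In shoots 335 root-preferring features rose (9.79%, against 16.1% of all features tested) and 955 fell (27.9%, against 20.3%). In roots 1006 of them rose (29.4%, against 25.9%) and 1061 fell (31%, against 19.5%). Of the shoot-preferring features, 442 rose in shoots (24.7%) and 600 fell (33.6%), both above those shares over all features. In roots 526 of them rose (29.4%) and 322 fell (18%), near the shares over all features. Which tissue counts as higher depends on the deposited scaling, since median-of-ratios scaling shifted the log2 ratio of shoots to roots under water by a median of 0.57.

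Members of 9 miRNA gene families were measured well enough to test, and they are the genes with a name in these data. Of 154 zma-MIR features, 36 had reads in ST and 17 were tested, and 19 with reads stayed below the filter, none above 2.16 FPKM. The difference of responses was called for 7 of the 17 (41.2%, against 42.3% of all features tested). Of the 17 tested, 6 had a called positive difference (against 17.1% of all features tested) and 1 a called negative one (against 25.2%). Among called differences alone, 6 of the 7 were positive, against 40.4% over all features. The share called is thus close to that of all features. The median difference over the 17 was 0.73 on the log2 scale, against -0.05 over all features. That median is the value of zma-MIR528b alone, whose difference was not called (limma adjusted p = 0.0983). The next value below it was -0.13, for zma-MIR393a, so the median does not show a shift of the whole set. In shoots 6 of the 17 rose (against 16.1% of all features) and 1 fell (against 20.3%). In roots 1 of the 17 rose (against 25.9% of all features) and 5 fell (against 19.5%). These genes are precursor loci, mature miRNAs were not measured, and most of the features are shorter than the reads of 150 bp.

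The lowest adjusted p among them was that of zma-MIR168a, of the family whose miRNA cuts transcripts of ARGONAUTE1, the protein that carries plant miRNAs. Its levels in shoots were 114, 107 and 119.7 FPKM under salinity, against 53.8, 54.2 and 58.9 FPKM under water. In roots they were 89.4, 86.2 and 74.5 FPKM under salinity, against 146, 108 and 107 FPKM under water. The treatments did not overlap in either tissue, with salinity above water in shoots and below it in roots. The response was 1.01 in shoots (SE 0.10, limma adjusted p = 7.17e-06) and -0.51 in roots (SE 0.10, limma adjusted p = 0.00149), both as log2 changes. The difference of 1.53 (SE 0.15, limma adjusted p = 4.7e-06) was called in every one of 21 refits with other settings or without 1 library, at 1.38 to 1.60. Between the tissues, zma-MIR168a was higher in shoots than in roots under salinity, by 0.44 (limma adjusted p = 0.00141), and lower under water, with a log2 ratio of -1.09 (limma adjusted p = 3.47e-07). Both signs were kept after median-of-ratios scaling, at 1.13 under salinity and -0.43 under water.

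The other tested member of the zma-MIR168 family, zma-MIR168b, moved in shoots without a called response in roots. Shoots had 89.9, 93.9 and 91.4 FPKM under salinity, against 50.9, 47.2 and 50.6 FPKM under water. Roots had 71.2, 61.5 and 66 FPKM under salinity, against 65.1, 66.1 and 60.2 FPKM under water. The shoot treatments were apart and the root treatments overlapped. The shoot response was 0.88 (SE 0.06, limma adjusted p = 1.19e-07) and that in roots 0.05 (SE 0.06, limma adjusted p = 0.493), a difference of 0.82 (SE 0.08, limma adjusted p = 5.08e-06) that all 21 refits called. No source used here says how any reads that match both genes were assigned, so the split of values between zma-MIR168a and zma-MIR168b is uncertain. Under water, the sign of the ratio of shoots to roots for zma-MIR168b flipped with scaling, from -0.36 as deposited to 0.29 after median-of-ratios scaling.

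The largest difference among the miRNA genes was that of zma-MIR156d, of the family that targets transcripts of SPL transcription factors and delays the change from juvenile to adult growth. Shoots had 24.9, 20.2 and 27.4 FPKM under salinity, against 8.84, 12.7 and 9.26 FPKM under water. Roots had 4.54, 4.48 and 3.72 FPKM under salinity, against 12.5, 10 and 7.74 FPKM under water. With the deposited values the tissues stood close together under water, with a log2 ratio of shoots to roots of 0.03 (limma adjusted p = 0.881). Under salinity shoots were higher by 2.25 (limma adjusted p = 1.53e-08). The closeness under water is bound to the deposited scaling, since median-of-ratios scaling shifted such ratios by a median of 0.57 over features. The response was 1.17 in shoots (SE 0.16, limma adjusted p = 9.39e-05) and -1.06 in roots (SE 0.16, limma adjusted p = 0.00017), which gave a difference of 2.23 (SE 0.23, limma adjusted p = 7.96e-06). The values rest on 10 to 74 reads per library, and the difference was called in all 21 refits at 2.08 to 2.45.

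Another member of that family, zma-MIR156k, had the highest mean level of the tested members, 16.9 FPKM over the 12 libraries. Its levels were 18.2, 19.2 and 19 FPKM in shoots under salinity, against 22, 13.8 and 13.6 FPKM under water. Roots had 9.1, 13.4 and 15.5 FPKM under salinity, against 22.3, 17.9 and 18.6 FPKM under water. The shoot treatments overlapped and the root treatments did not. The root response was -0.62 (SE 0.18, limma adjusted p = 0.0152) and the shoot response 0.21 (limma adjusted p = 0.423). The root call was lost without root water replicate 1 (adjusted p = 0.0584) or root salinity replicate 1 (adjusted p = 0.0692). The difference of 0.83 (SE 0.26, limma adjusted p = 0.0213) was lost without root water replicate 1, shoot water replicate 2 or shoot water replicate 3, with adjusted p of 0.0502, 0.0536 and 0.0541. The remaining tested members zma-MIR156e, zma-MIR156f and zma-MIR156j averaged 2.11, 1.22 and 0.69 FPKM, and their differences of -0.31, -0.36 and -0.13 were not called.

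Lower levels in roots under salinity were also called for zma-MIR166a and zma-MIR171f. The family of zma-MIR166a targets transcripts of class III HD-ZIP factors, which set the upper side of leaves and vascular patterning. Its levels were 0.428, 0.777 and 0.826 FPKM in shoots under salinity, against 0.176, 0.181 and 0.192 FPKM under water, on 1 to 4 reads per library. In roots it had 6.52, 4.55 and 4.16 FPKM under salinity, against 7.75, 5.61 and 8.31 FPKM under water. Treatments were apart in shoots and overlapped in roots. The difference of 0.94 (SE 0.22, limma adjusted p = 0.00422) was called in all 20 refits, while the shoot and root responses lost their calls in 7 and 8 of them.

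The family of zma-MIR171f targets transcripts of GRAS proteins that maintain meristems. It had 0 reads in all 6 shoot libraries, which allows up to 0.281 FPKM under salinity and 0.251 FPKM under water (3 reads over the 3 libraries of a group, counting error only). In roots it stood at 0.498, 0 and 0.286 FPKM under salinity, against 1.56, 1.45 and 1.19 FPKM under water, on 0 to 2 and 5 to 6 reads. At least 1 FPKM was reached in the root water libraries alone, so the gene passed the filter through the group where it is highest. That selection favours a fall in roots. The treatments did not overlap in roots, where the response was -0.94 (SE 0.13, limma adjusted p = 5.28e-05). The difference of 0.94 (SE 0.18, limma adjusted p = 0.000949) equals this fall in size, and a test on recovered reads did not call it (voom adjusted p = 0.0839).

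The opposite sign was found for zma-MIR169n, of the family that targets transcripts of NF-YA subunits, transcription factors linked to drought responses. Roots had 5.19, 9.32 and 13.2 FPKM under salinity, against 1.55, 3.95 and 3.19 FPKM under water, and did not overlap. Shoots had 2.19, 4.38 and 0.846 FPKM under salinity, against 2.53, 5.94 and 2.35 FPKM under water, and overlapped. The root response was 1.37 (SE 0.41, limma adjusted p = 0.0163) and the difference -1.82 (SE 0.58, limma adjusted p = 0.0234). The difference lost its call without root water replicate 1, root salinity replicate 3, shoot water replicate 2 or shoot salinity replicate 3, with adjusted p of 0.0545 to 0.0587. The root response lost its call without root water replicate 1 (adjusted p = 0.069) or root salinity replicate 3 (adjusted p = 0.0707).

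**Figure D3:**
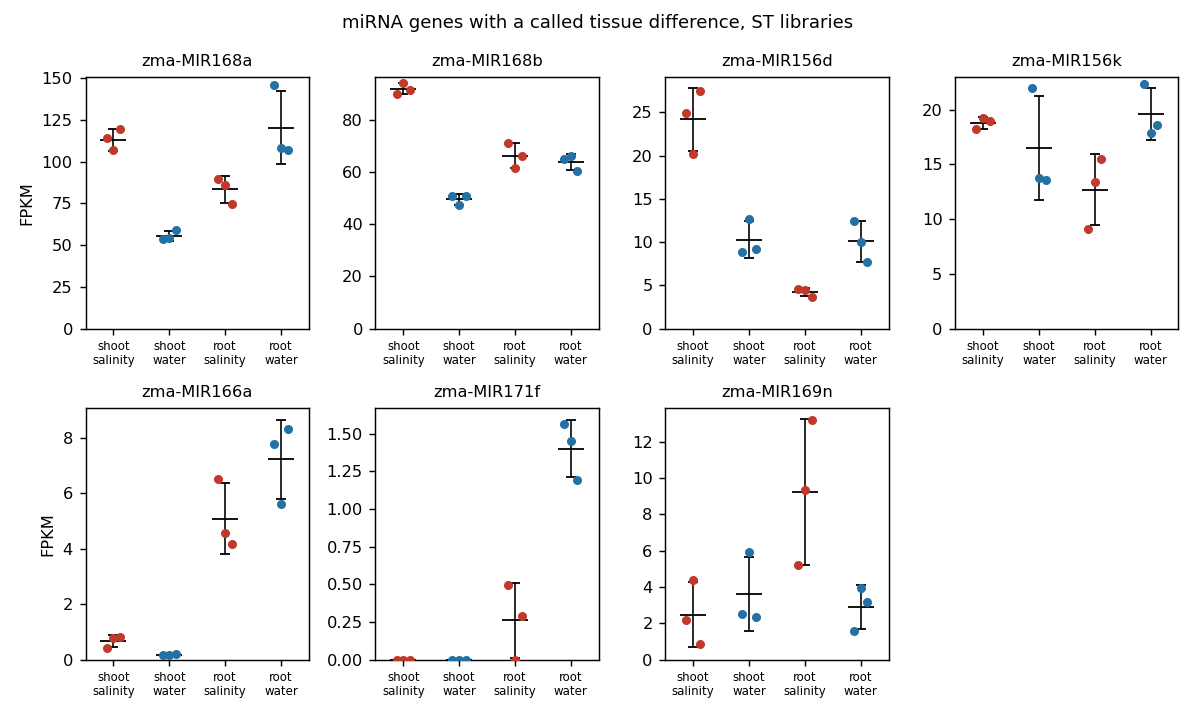
Points are the FPKM values of single ST libraries for the 7 miRNA genes with a called difference of responses, salinity in red and water in blue, with the mean and SD of the 3 libraries in black. Salinity lies above water in shoots and below it in roots for zma-MIR168a and zma-MIR156d, and zma-MIR169n is the gene with a called rise in roots, a call lost without root water replicate 1 or root salinity replicate 3.

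The other 10 miRNA genes averaged 0.622 to 2.71 FPKM, and their differences of -1.14 to 0.82 on the log2 scale were not called (limma adjusted p of 0.0652 to 0.87). A missing call does not show that the tissues responded alike. Calls in shoots alone were made for zma-MIR528a and zma-MIR408b, of families that target transcripts of copper proteins, and for zma-MIR399e, of a family that targets the phosphate regulator PHO2. The level of zma-MIR528a was 6.31, 8.75 and 5.01 FPKM in shoots under salinity, against 2.75, 2.83 and 5.97 FPKM under water, which overlapped, and 0 to 0.314 FPKM in roots. That of zma-MIR408b was 3.1, 2.53 and 2.69 FPKM in shoots under salinity, against 1.79, 0.263 and 1.11 FPKM under water. For zma-MIR399e shoots had 0, 1 and 0 FPKM under salinity, against 3.64, 2.49 and 0.329 FPKM under water, and all roots had 0 reads. Their shoot responses of 0.70, 0.95 and -1.14 (limma adjusted p = 0.0343, 0.0277 and 0.0282) lost their calls in several refits, zma-MIR408b without shoot water replicate 2 among them (adjusted p = 0.123).

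The largest differences in the table belong to features known by identifier only, which the files and the reference names do not pair with a gene. They include opposite movement, falls and rises in roots alone, and unequal rises in both tissues. Zm00001d011461 had 220.1, 209.7 and 219.6 FPKM in shoots under salinity, against 67.2, 74.7 and 70 FPKM under water. In roots it had 2.46, 1.63 and 3.32 FPKM under salinity, against 63.1, 72.6 and 53.7 FPKM under water. With the deposited scaling, on which such ratios depend, its tissues stood close together under water, at a log2 ratio of shoots to roots of 0.17 (limma adjusted p = 0.278). Under salinity shoots were higher (limma adjusted p = 1.47e-13). The response of Zm00001d011461 was 1.60 in shoots (SE 0.14, limma adjusted p = 2.08e-06) and -4.23 in roots (SE 0.14, limma adjusted p = 2.98e-10), a difference of 5.83 (SE 0.20, limma adjusted p = 1e-09).

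Zm00001d012088 showed the same directions at a higher level. Its shoot values were 4283, 4207 and 4187 FPKM under salinity, against 1679.8, 1735 and 1790.2 FPKM under water. Its root values were 61, 63.8 and 79.5 FPKM under salinity, against 384, 484 and 485 FPKM under water. Treatments were apart in both tissues, and the difference was 3.99 (SE 0.14, limma adjusted p = 1.07e-09).

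The reverse was found for Zm00001d028651 and Zm00001d043610. Zm00001d028651 fell in shoots to 4.44, 5.71 and 5.67 FPKM under salinity, against 90.1, 81.3 and 83.1 FPKM under water. It rose in roots to 133, 156 and 138 FPKM under salinity, against 53.3, 57.4 and 62.6 FPKM under water. Its shoot response of -3.78 (SE 0.09, limma adjusted p = 3.88e-11) was the lowest of all features tested, and the difference was -5.06 (SE 0.13, limma adjusted p = 7.12e-11). Zm00001d043610 had 2.23, 2.53 and 2.56 FPKM in shoots under salinity, against 5.75, 3.9 and 5.37 FPKM under water. In roots it had 277, 230.4 and 269 FPKM under salinity, against 27.6, 21.6 and 18.4 FPKM under water. The difference was -4.27 (SE 0.20, limma adjusted p = 9.18e-09), and its shoot response of -0.79 lost its call on recovered reads (voom adjusted p = 0.0575).

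Movement in roots with little or no signal in shoots gave the other large differences. Zm00001d027700 fell in roots to 6.32, 7.38 and 6.18 FPKM under salinity, against 128, 129.8 and 129 FPKM under water. Its shoots had 0, 0.0526 and 0 FPKM under salinity and 0 reads under water, so its difference of 4.12 (SE 0.10, limma adjusted p = 4.75e-11) is a root response. Zm00001d008223 rose in roots to 73.2, 60 and 72.6 FPKM under salinity, against 0.526, 1.14 and 0.883 FPKM under water, and stayed at 0.295 to 0.532 FPKM in shoots, where the treatments overlapped (difference -5.31, SE 0.17, limma adjusted p = 5.43e-10). Zm00001d031877 rose in roots to 67.8, 71.2 and 66.5 FPKM under salinity, against 0.944, 0.778 and 1.06 FPKM under water. It had 0 reads in all 6 shoot libraries, which allows up to 0.114 FPKM under salinity and 0.101 FPKM under water, and its difference was -5.18 (SE 0.10, limma adjusted p = 2.01e-11).

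Features with large responses in shoots included some that rose in roots too. Zm00001d044078 had the largest rise in shoots, to 60, 60.2 and 59.4 FPKM under salinity, against 1.67, 2.4 and 2.9 FPKM under water. In roots it had 309, 304 and 325 FPKM under salinity, against 28.8, 24.1 and 29 FPKM under water. It rose in both tissues, by 4.21 in shoots and 3.48 in roots, and the difference of 0.73 (SE 0.15, limma adjusted p = 0.00212) was lost after quantile normalization (adjusted p = 0.0856). Zm00001d014083 rose by 4.05 in shoots and 2.35 in roots, a difference of 1.70 (SE 0.19, limma adjusted p = 1.52e-05). Its shoots had 18.4, 17.8 and 16.5 FPKM under salinity, against 0.22, 0.0323 and 0.102 FPKM under water, and its roots 6.93, 5.67 and 4 FPKM under salinity, against 0.269, 0.25 and 0.247 FPKM under water.

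Zm00001d037894 had the largest rise in roots, to 101, 83.4 and 85.5 FPKM under salinity, against 0.431, 0.44 and 0.118 FPKM under water. In shoots it had 6.79, 6.07 and 7.02 FPKM under salinity, against 0.885, 1.12 and 0.699 FPKM under water. It rose in both tissues, by 2.01 in shoots and 6.10 in roots (difference -4.09, SE 0.16, limma adjusted p = 2.65e-09). Novel02807, a transcript model added to the reference set, fell in shoots to 2.51, 1.93 and 3.56 FPKM under salinity, against 32.9, 20.6 and 31.5 FPKM under water. Its roots had 0.641, 0.201 and 0.506 FPKM under salinity, against 4.98, 0.504 and 0.268 FPKM under water, where replicate 1 lay far above the other two libraries. The difference of -2.35 (SE 0.63, limma adjusted p = 0.00904) was lost with a pseudocount of 0.1 (adjusted p = 0.102) and on recovered reads (voom adjusted p = 0.0888).

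**Figure D4:**
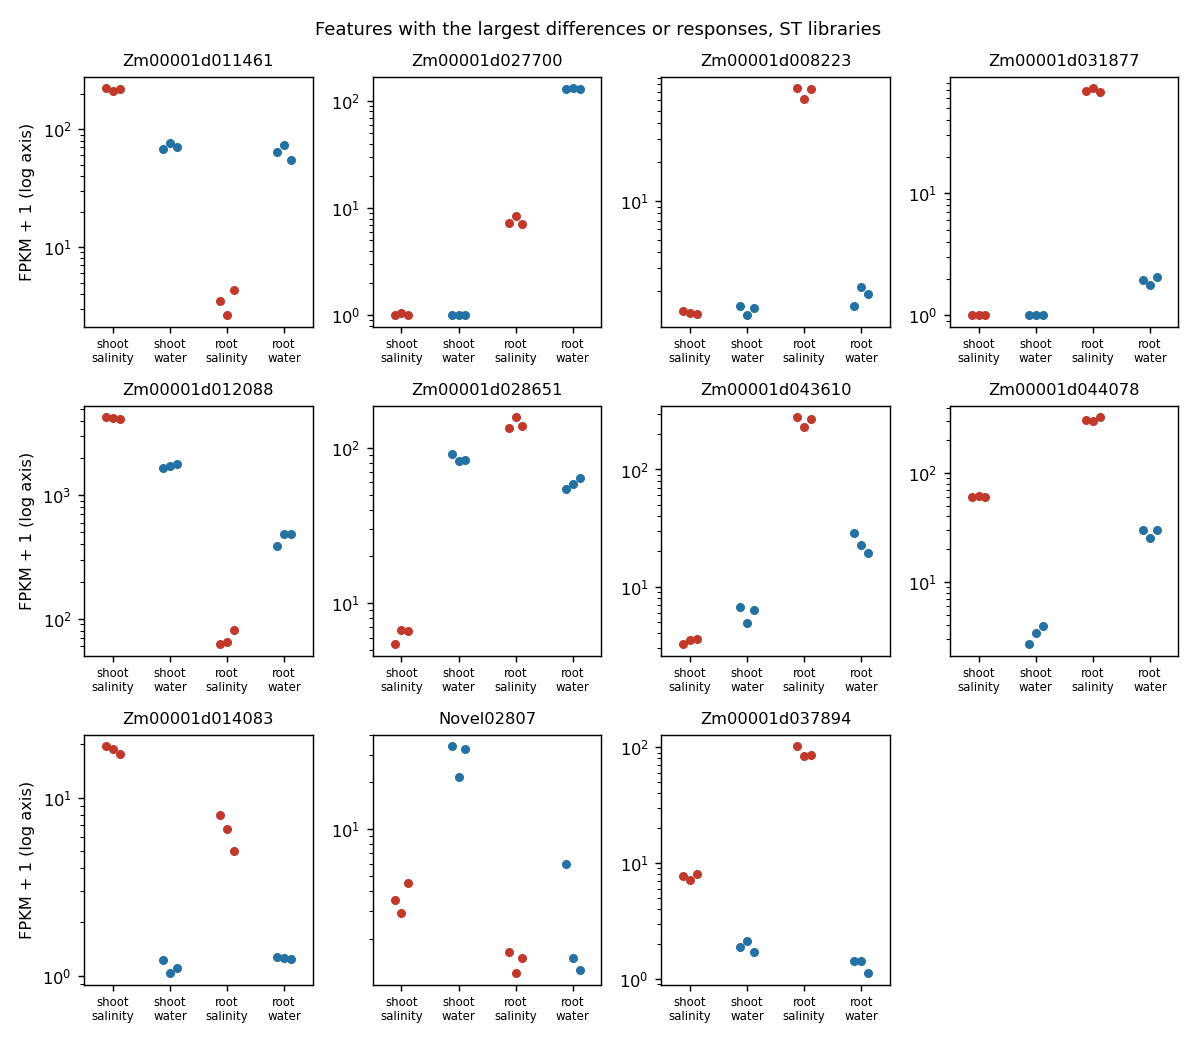
Points are FPKM + 1 of single ST libraries on a log axis, for the 11 features known by identifier that had the largest differences or responses, salinity in red and water in blue. Zm00001d011461 and Zm00001d012088 move up in shoots and down in roots, Zm00001d028651 and Zm00001d043610 the other way, and Zm00001d027700, Zm00001d008223 and Zm00001d031877 move in roots alone.

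By class of identifier, called differences were spread unevenly. The Zm00001d features had 4303 positive and 6367 negative calls among 24794 tested (43%), and the added transcript models 245 and 332 among 1643 (35.1%). The ENSRNA features, an identifier class of non-coding RNAs, had 8 and 18 among 193 (13.5%). None of the 4 tested GRMZM5G features had a called difference, and 2 of them fell in roots. Median levels differed as well, at 3.16 for Zm00001d, 1.39 for added transcript models and 1.69 for ENSRNA features on log2(FPKM + 1), and their part in these shares was not tested.

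The tissue with the higher level changed with the treatment for some features. Under salinity shoots were higher than roots, and under water lower, for 276 features, and the reverse held for 304, together 580 (2.18%) of those tested. For comparison, shoots were called higher for 22.2% and lower for 66.8% of the features tested under salinity, and for 22.5% and 67% under water. Of the 580, 20 differed at least 2-fold under both treatments. The identity of these features rests on scaling, since median-of-ratios scaling gave 689 such features, of which 128 were shared with the 580. A feature of the first kind, chosen after its values were seen, was Zm00001d042684. It had 140.4, 144 and 136 FPKM in shoots and 60, 67.6 and 60.6 FPKM in roots under salinity. Under water it had 66.3, 66.5 and 67.4 FPKM in shoots and 143, 153 and 154 FPKM in roots.

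The log2 ratio of shoots to roots of Zm00001d042684 was 1.15 under salinity and -1.16 under water, and its sign under each treatment was kept after median-of-ratios scaling (1.84 and -0.50) and quantile normalization (1.46 and -0.93). Zm00001d023387 and Zm00001d020443, also chosen after their values were seen, gave the reverse. Zm00001d023387 had 3.06, 3.98 and 6.3 FPKM in shoots and 29.3, 28.3 and 26.3 FPKM in roots under salinity, against 3.36, 3.02 and 4.02 FPKM in shoots and 0.901, 0.752 and 0.247 FPKM in roots under water. Zm00001d020443 had 4.31, 3.78 and 3.88 FPKM in shoots and 24.6, 18.1 and 23.3 FPKM in roots under salinity, against 9.47, 10.8 and 10 FPKM in shoots and 3.17, 2.41 and 3.66 FPKM in roots under water. Their signs were also kept under both scalings.

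The same contrast in SS gave a partly overlapping set of features. In 1 fit of all 24 libraries, with 29127 features tested, a difference of responses was called for 12630 features in ST (43.4%) and 12004 in SS (41.2%). Both cultivars were called for 6028 features, 47.7% of the ST list and 50.2% of the SS list, and 57% of these had the same sign. Of the called differences of at least 1, 1926 in ST (6.61%) and 1702 in SS (5.84%), 428 were shared, 22.2% of the ST list and 25.1% of the SS list. Of the 428, 307 had the same sign and 121 the opposite one. The contrasts of the cultivars compare separate libraries, but the fit gave each feature a common estimate of spread over all 24. Calls in ST and in SS are therefore not independent.

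The difference between the cultivars was itself called for 12271 features (42.1%), 4503 higher (15.5%) and 7768 lower (26.7%) in ST. The majority of lower values depended on scaling: 36.7% of the calls were higher in ST with the deposited values and 50.3% when rescaled by the median of ratios, which moved the median by 0.126. Sequence differences between each cultivar and the reference were not tested.

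Among the miRNA genes, the salt response of zma-MIR156d and zma-MIR168a differed more between the tissues in ST than in SS. The level of zma-MIR156d in SS shoots was 26.8, 18.3 and 23.1 FPKM under salinity, against 16.9, 16.8 and 15.2 FPKM under water. In SS roots it was 3.78, 2.58 and 2.43 FPKM under salinity, against 2.13, 4.21 and 3.87 FPKM under water, which overlapped. Its difference of responses exceeded that in SS by 1.64 (SE 0.38, limma adjusted p = 0.00155), a call kept in all 31 refits. In SS, zma-MIR168a stood higher in shoots, at 385, 391 and 450.5 FPKM under salinity and 349, 307 and 317 FPKM under water. SS roots had 86.8, 76.1 and 72.3 FPKM under salinity, against 102, 103 and 102 FPKM under water, so the treatments lay in the same order as in ST (limma adjusted p = 0.00699 in SS shoots and 0.00318 in SS roots).

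For zma-MIR168a the excess of ST over SS was 0.81 (SE 0.19, limma adjusted p = 0.00205), also kept in all 31 refits. For zma-MIR168b, SS shoots had 19.7, 24.2 and 12.1 FPKM under salinity, against 24.4, 22.1 and 18.1 FPKM under water, and SS roots 19, 19.2 and 23.8 FPKM under salinity, against 23.9, 26.9 and 24.2 FPKM under water. The excess in ST of 0.80 (SE 0.30, limma adjusted p = 0.0391) lost its call in 15 of 31 refits, with adjusted p of 0.00371 to 0.0764 over all of them. The other miRNA genes tested in ST had no called difference between the cultivars.

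**Figure D5:**
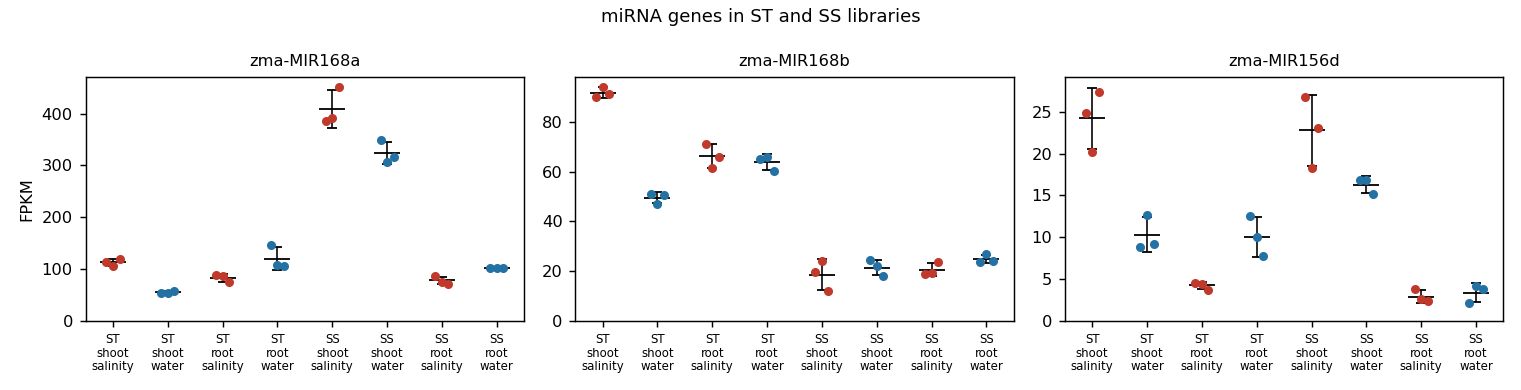
Points are the FPKM values of single libraries for 3 miRNA genes, the 12 ST libraries on the left and the 12 SS libraries on the right of each panel, salinity in red and water in blue, with the mean and SD of 3 libraries in black. In shoots, zma-MIR156d averages 24.2 FPKM under salinity and 10.3 under water in ST, and 22.8 and 16.3 in SS, and zma-MIR168a stands highest in SS shoots.

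Several features known by identifier also differed between the cultivars. For Zm00001d043610 the difference of responses was positive in SS, at 2.14, with SS shoots at 40.2, 34.6 and 41.3 FPKM under salinity, against 4.68, 5.89 and 3.68 FPKM under water. ST lay below SS by -6.41 (SE 0.29, limma adjusted p = 7.24e-13). Zm00001d037894 rose more in shoots than in roots of SS (difference 1.76) and more in roots than in shoots of ST, and ST lay below SS by -5.86 (SE 0.21, limma adjusted p = 1.51e-14). Zm00001d011461 had a positive difference in both cultivars, 3.29 in SS, although it fell in SS shoots, with a response of -1.69 (limma adjusted p = 2.49e-09). Zm00001d042684 had a difference of -0.05 in SS (limma adjusted p = 0.71), and ST lay above SS by 2.36 (SE 0.12, limma adjusted p = 4.55e-12).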

How the data were processed

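RNA of 12 ST and 12 SS libraries was sequenced as paired ends of 150 bp. For each library the authors deposited FPKM values (reads per feature, scaled to feature length and library total) for 50202 features. Per the submitters' processing notes, TopHat2, Cufflinks and Cuffdiff were used, with no role or version, and the build was B73 RefGen_v3. Most identifiers belong to a later gene set, so the annotation is uncertain and no coordinates are given. No source used here gives the strand. The values could be turned into whole reads, within 0.002 reads, for 100% of the 40811 features above 0. Recovered reads reached at least 99.9997% of each ST library total and gave depths and floors, whose limits reflect counting error.

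The main test was limma (version 3.58.1, R 4.3.3) on log2(FPKM + 1), with variances following mean level, for features with at least 1 FPKM in 3 libraries of the fit, and Benjamini-Hochberg adjustment at 0.05. ST contrasts came from a fit of its 12 libraries, cultivar contrasts from a fit of all 24. This scale understates changes of low features. The procedure was tested on simulated data. The series calls the replicates biological, and p-values measure the spread between these libraries. Alternatives were a pseudocount of 0.1, no filter, 5 FPKM in 3 libraries, rescaling by the median of ratios, quantile normalization, voom on recovered reads, a replicate block, the fit of 24 libraries, leaving out each library and, added after seeing the data, a filter of 1 FPKM in 3 libraries of each tissue. Software also included Python 3.11.15 with numpy 2.4.6, with pandas 2.3.3 and, for plots, matplotlib 3.10.9.

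A gene table of Zm-B73-REFERENCE-NAM-5.0 gave names alone; it matched 153 features, all miRNA genes, and 0 Zm00001d identifiers. Lists of salt transport, hormone, redox, photosynthesis and other genes, and the tissue markers, therefore had 0 members. Named genes were all tested miRNA genes with a called difference and, for identifiers, 2 per direction with a mean of at least 5 FPKM in the difference, among opposite movements and in each single response. The miRNA genes called in shoots alone, the features whose higher tissue changed and the contrasts between tissues were added after their values were seen. Members and lists were chosen with earlier results of these data known.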

Additional observations from a re-analysis of the deposited data

Results flagged for a closer look

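Each result given here was called in a test of an interaction. Either shoots and roots of ST differed in their response to salinity, or ST and SS differed in that difference. Some of the features had been chosen by their response in 1 tissue or by the change of their higher tissue. In ST, 11280 features differed between the tissues. The log2 differences of named miRNA genes, shoot response minus root response, were 2.23 for zma-MIR156d, 1.53 for zma-MIR168a, 0.94 for zma-MIR171f, 0.94 for zma-MIR166a, 0.83 for zma-MIR156k, 0.82 for zma-MIR168b and -1.82 for zma-MIR169n. Those of features known by identifier were 5.83 for Zm00001d011461, 4.12 for Zm00001d027700, 3.99 for Zm00001d012088, 1.70 for Zm00001d014083 and 0.73 for Zm00001d044078. Negative differences were -5.31 for Zm00001d008223, -5.18 for Zm00001d031877, -5.06 for Zm00001d028651, -4.27 for Zm00001d043610, -4.09 for Zm00001d037894 and -2.35 for Novel02807. Among features whose higher tissue changed with the treatment they were 2.31 for Zm00001d042684, -3.92 for Zm00001d023387 and -3.65 for Zm00001d020443. Zm00001d046421 had 2.14, on 3 to 26 reads per library, and its change of the higher tissue was not kept after median-of-ratios scaling (log2 ratio of shoots to roots under water -0.51, limma adjusted p = 0.255).

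Between the cultivars, 12271 features differed. The log2 excess of ST over SS was 1.64 for zma-MIR156d, 0.81 for zma-MIR168a and 0.80 for zma-MIR168b.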

How the results depend on the processing

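Under the alternatives, the counts of called differences, of shoot and root responses, of opposite movements, of changes of the higher tissue and of differences between the cultivars stayed within 1.5 times their values. The count of differences of at least 1 did not: 1906 became 3099 with a pseudocount of 0.1, 2924 with voom and 1189 with at least 1 FPKM in 3 libraries of each tissue. Without each library in turn, called differences ranged over 10111 to 11079, those of at least 1 over 1861 to 1929, shoot responses over 8207 to 10084, root responses over 10504 to 12061, opposite movements over 1650 to 2014, changes of the higher tissue over 522 to 567 and differences between the cultivars over 11612 to 12403. The labels do not say whether same-numbered libraries belong together. Correlations of their deviations from the group means were -0.08 to 0.06 over all features, which cannot exclude a link that touches few features. A replicate block gave 11061 called differences, 1910 of at least 1, 9436 shoot and 11829 root responses, 1899 opposite movements, 580 changes of the higher tissue and 12133 differences between the cultivars. For named features, 1663 refitted values kept direction and call, 74 lost the call and none reversed. Counts of a few reads per library limit the precision for most miRNA genes.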
